A study of Mus musculus with 40 samples.

Results

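Livers of castrated male mice that carried an estradiol pellet were compared with livers of testis-intact males, 5 animals against 5, which is 10 of the 40 arrays of the series. The 10 were chosen by their labels alone: animals 41 and 43 to 46 against animals 8 to 12. The study put gonadectomized mice of both sexes on hormone or placebo pellets, and measured liver RNA on 2-colour arrays, 1 array per animal, with a pool of liver RNA from 40 mice in the other channel. All mice were of the inbred C57BL/6J strain, ate chow with 4% fat, and were killed at 14 weeks of age after a 12 h fast.

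The estradiol males were castrated at 8 weeks and received a subcutaneous pellet at 12 weeks. It held 0.5 mg of estradiol, was built to release over 21 days, and was stated to yield 300 pg/ml in plasma. Castrated males with a placebo pellet, animals 24 to 28, had the same surgery and schedule and show what castration did without hormone. Ovariectomized females with the estradiol pellet (animals 33 to 37) or the placebo pellet (animals 16 to 20) gave the effect of estradiol in animals used in no other comparison here. Intact males were 14 weeks old as well, and the labels do not say whether they had a sham operation or a pellet. Loss of testis hormones, surgery and pellet can therefore not be told apart in any difference from intact males. The level is the nominal one of the pellet, and the level reached in each animal is not known here.

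Male mouse liver expresses a set of genes that depends on the testis, mostly through the pulsed pattern of pituitary growth hormone that androgen imposes. Growth hormone acts in hepatocytes through the transcription factor STAT5b, whose pulses keep male-biased genes on and female-biased genes off. Estradiol can act on the same organ directly, through estrogen receptor alpha in hepatocytes, and indirectly, through the pituitary. The question was which changes that follow castration are offset when estradiol is given.

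A value is the log2 ratio of a liver to the pool, so 0 is the level of the pool, 1 is a doubling and -1 a halving. Differences are log2 differences of group means with the SE of the linear model. The p-values are from limma, two-sided, and adjusted over all 23574 probes by the Benjamini-Hochberg method. A probe was called at an adjusted p under 0.05, and the words rose and fell are kept for called differences. The p-values measure the spread between animals, since each array is a separate mouse. In whole liver, fewer cells of a type and less RNA per cell cannot be told apart.

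The sex labels held in all 40 livers: Eif2s3y, which lies on the Y chromosome, ran between 0.35 and 1.44 in the 20 males and between -6.07 and -3.82 in the 20 females. A ratio to a liver pool does not show whether a marker is absent, so the tissue label could be checked only by its evenness. Over 10 measured hepatocyte markers, the mean per animal ran between -0.21 and -0.07 in estradiol males, between -0.21 and 0.12 in castrated placebo males, and between -0.02 and 0.34 in intact males. Serpina1a, an antitrypsin gene, was the 1 marker of the 10 called, at -0.29 (SE 0.08, limma adjusted p = 0.0201) in estradiol against intact males. Intact male 11 stood apart from the other 4 for several genes, and its values are given where they matter.

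Estradiol males differed from intact males at 2333 probes, or 9.9% of those tested, with 996 higher (4.22%) and 1337 lower (5.67%). The 2 groups did not overlap at 1468 probes (6.23%), or at 6.7% of genes with 1 probe taken for each. Of the 2333 called probes, 69 were higher and 103 lower by at least 2-fold. Castrated placebo males differed from intact males at 2856 probes (12.1%), with 1225 higher (5.2%) and 1631 lower (6.92%). Estradiol males differed from castrated placebo males at 278 probes (1.18%), with 174 higher and 104 lower, and did not overlap with them at 2.87% of probes. The comparisons share animals pairwise, so their counts are set side by side and not tested against each other.

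The circadian clock genes also differed between the groups. A clock index, the mean log2 ratio of 8 genes of one arm (Dbp, Nr1d1, Nr1d2, Per1, Per2, Per3, Tef and Hlf) minus that of 5 genes of the opposite arm (Arntl, Npas2, Clock, Cry1 and Nfil3), ran between -0.04 and 0.58 in estradiol males. It ran between -0.54 and 0.50 in castrated placebo males and between -0.61 and -0.21 in intact males, so that estradiol and intact males did not overlap. With the index as a covariate, 983 probes were called between estradiol and intact males in place of 2333. The hour of killing is not in the labels, and a clock difference and the hormone state cannot be told apart in this comparison.

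Of the 5 largest losses in castrated placebo against intact males, Hsd3b5, Elovl3 and Moxd1 were still called under estradiol, and Serpina4-ps1 and Cyp7b1 were not. Elovl3, a fatty acid elongase known for its male bias in mouse liver, read -1.35, -3.17, -3.06, -2.89 and -2.15 in estradiol males, -2.34, -1.86, -2.51, -2.05 and -2.21 in castrated placebo males, and 1.96, 2.33, 2.36, 2.00 and 2.46 in intact males. Every castrated liver, with or without estradiol, lay below every intact one. The fall was 26.9-fold in estradiol against intact males (-4.75, SE 0.41, limma adjusted p = 2.02e-09), beside -4.42 (SE 0.41) in castrated placebo against intact males. The difference between estradiol and castrated placebo males was -0.33 (SE 0.41, adjusted p = 0.711).

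Moxd1, which encodes a monooxygenase related to dopamine beta-hydroxylase, read -1.85, -1.70, -2.14, -2.15 and -2.31 in estradiol males and -1.76, -2.28, -2.15, -1.61 and -2.42 in castrated placebo males. Intact males read 2.24, 1.62, 1.05, -1.59 and 4.39. Intact male 11, at -1.59, sat next to the castrated livers, while the other 4 were far above them. Moxd1 fell by 3.57 in estradiol against intact males (SE 0.49, limma adjusted p = 3.62e-06). Estradiol and castrated placebo males differed by 0.02 (SE 0.49, adjusted p = 0.991).

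Hsd3b5, the male-biased 3-ketosteroid reductase of mouse liver, read -2.71, -3.39, -2.51, -2.36 and 0.60 in estradiol males, -4.10, -3.84, -4.06, -3.88 and -4.32 in castrated placebo males, and 1.34, 1.44, 1.80, 2.26 and 1.48 in intact males. All 5 estradiol livers lay above all castrated placebo livers, and 1 of them, animal 46, came near the intact males. The difference between estradiol and castrated placebo males was 1.96 (SE 0.73) and did not pass the test (limma adjusted p = 0.208). Groups that do not overlap in this comparison occurred at 3.16% of all genes. Against intact males Hsd3b5 fell by 3.74 in estradiol males (SE 0.73, adjusted p = 0.000588), beside -5.70 (SE 0.73) in castrated placebo males. A second probe of the gene gave -0.07 in that comparison and was not called.

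Of the other low genes, Cyp4a12a, a fatty acid omega-hydroxylase, fell by 2.90 in estradiol against intact males (SE 0.35), and Nat8, an N-acetyltransferase, fell by 2.72 (SE 0.34). Bmf, a pro-apoptotic BCL2 family member, fell by 2.10 (SE 0.25), Selenbp2, a selenium-binding protein, by 1.90 (SE 0.19), and Spsb1, a SOCS-box protein, by 1.77 (SE 0.21). The differences of these 5 between estradiol and castrated placebo males lay between 0.14 and 0.70, and none was called (lowest limma adjusted p = 0.176).

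For G6pc, Lamb3 and Cyp8b1 the mean of castrated placebo males lay between those of estradiol and intact males, and no difference between estradiol and castrated placebo males was called (limma adjusted p between 0.0977 and 0.182). G6pc, the glucose-6-phosphatase that completes glucose output, read -0.82, -1.38, -1.09, -0.97 and -1.51 in estradiol males, 0.51, -0.19, -0.79, 0.02 and -0.87 in castrated placebo males, and 1.50, 0.81, 1.29, 0.11 and 1.00 in intact males. The castrated placebo livers lay between the other two groups with overlap to both. G6pc fell by 2.10 in estradiol against intact males (SE 0.30, limma adjusted p = 7.78e-06), beside -1.20 (SE 0.30) in castrated placebo against intact males. Lamb3, a laminin chain, fell by 1.71 in estradiol against intact males (SE 0.37, adjusted p = 0.00198) and was not called in castrated placebo males at -0.47 (SE 0.37, adjusted p = 0.429). Cyp8b1, the sterol 12-alpha-hydroxylase that sets the share of cholic acid, fell by 1.49 (SE 0.25), beside -0.80 (SE 0.25) in castrated placebo against intact males. Gadd45g, a stress-response gene, read -0.04 in its highest estradiol liver and -0.02 in its lowest intact liver, and its call (-1.97, SE 0.63, adjusted p = 0.0414) was lost without any 1 of 6 animals. Gadd45g, Cd248, Cyp2d9 and Cgref1 were no longer called with the clock index as a covariate.

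**Figure D1:**
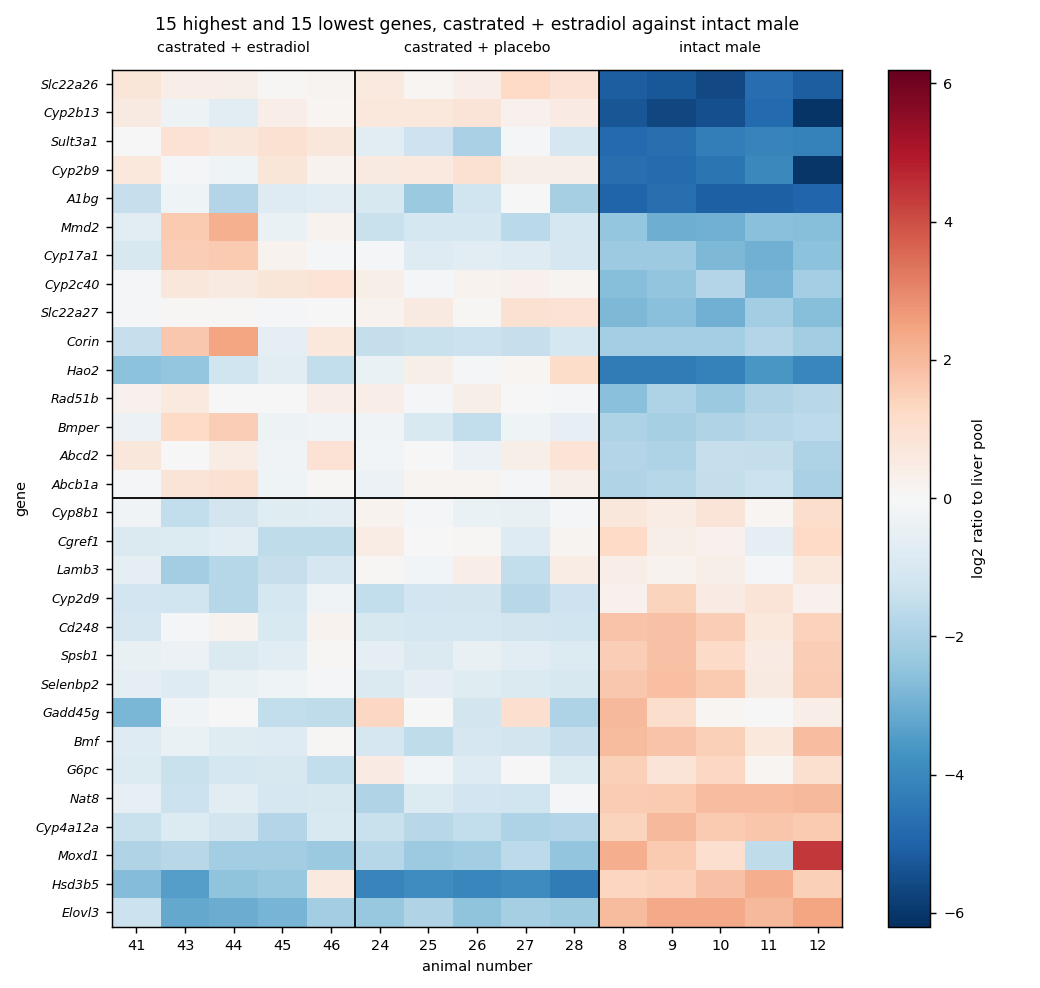
The 15 highest and 15 lowest genes of castrated estradiol against intact males, by rows, in 15 animals by columns; colour is the log2 ratio to the liver pool. The castrated placebo livers resemble the estradiol livers for Slc22a26, Cyp2b13 and Elovl3, while Corin, Lamb3 and Cgref1 are set apart mainly in the estradiol livers.

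The genes that were higher in estradiol than in intact males were led by female-biased genes of foreign compound and steroid handling. Slc22a26, an organic anion transporter, read 0.74, 0.43, 0.36, 0.08 and 0.17 in estradiol males, 0.59, 0.13, 0.39, 1.22 and 0.89 in castrated placebo males, and -5.12, -5.26, -5.59, -4.75 and -5.12 in intact males. Both castrated groups lay near the pool and overlapped, far above intact males. The rise was 46-fold in estradiol against intact males, or 5.52 (SE 0.56, limma adjusted p = 4.65e-08), beside 5.81 (SE 0.56) in castrated placebo against intact males. Estradiol and castrated placebo males differed by -0.29 (SE 0.56, adjusted p = 0.822).

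The female-biased cytochromes P450 Cyp2b13 and Cyp2b9 rose by 5.47 (SE 0.72) and 5.06 (SE 0.61) in estradiol against intact males. In castrated placebo against intact males they rose by 6.03 and 5.37. Other probes of these 2 genes rose by only 0.65 and 0.25 in estradiol against intact males. Cyp2c40, another P450, rose by 2.93 (SE 0.34), and its 3 other probes gave between 0.15 and 1.94. Probe sequences were not used here, so cross-hybridization between close family members such as Cyp2b9 and Cyp2b13 was not tested.

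Sult3a1, a sulfotransferase, read -0.01, 0.91, 0.68, 0.96 and 0.69 in estradiol males, -0.70, -1.30, -1.99, -0.07 and -1.03 in castrated placebo males, and -4.83, -4.69, -4.30, -4.16 and -4.18 in intact males. The 3 groups stood in that order without overlap, although the estradiol animal 41 and the placebo animal 27 nearly met. Sult3a1 rose by 5.08 in estradiol against intact males (SE 0.64, limma adjusted p = 6.98e-07), and its other probe rose by 0.74. The difference between estradiol and castrated placebo males was 1.67 (SE 0.64, adjusted p = 0.221).

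Hao2, a hydroxyacid oxidase, ran the other way. It read -2.53, -2.41, -1.26, -0.70 and -1.54 in estradiol males, -0.40, 0.36, -0.09, 0.14 and 1.15 in castrated placebo males, and -4.32, -4.33, -4.18, -3.60 and -4.03 in intact males, again with no overlap. Hao2 rose by 2.40 in estradiol against intact males (SE 0.61, limma adjusted p = 0.00855) and by 4.32 in castrated placebo against intact males (SE 0.61). The difference of -1.92 between estradiol and castrated placebo males did not pass (SE 0.61, adjusted p = 0.126), and the call against intact males was lost with the clock index as a covariate and after quantile normalization. A1bg, a plasma glycoprotein gene, rose by 3.93 (SE 0.77) and lost its call only after quantile normalization.

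The losses that estradiol offset were few. Castration with placebo lowered 70 genes by at least 2-fold against intact males at an adjusted p under 0.05, out of 10842 named genes of which 7.3% were called lower there. The rule for an offset loss was a called rise in estradiol against castrated placebo males, and 7 of the 70 met it. Over all genes 0.904% were called higher in that comparison. The placebo animals enter both comparisons, so the 7 of 70 describes the list and tests nothing. The genes at the edge of the first rule were Rpl6, inside at -1.001, and Timm17a, outside at -0.98. At the edge of the second, Ces3b was inside at an adjusted p of 0.0414, and Ugt2b5 (0.0531) and Omd (0.0586) were outside.

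**Figure D2:**
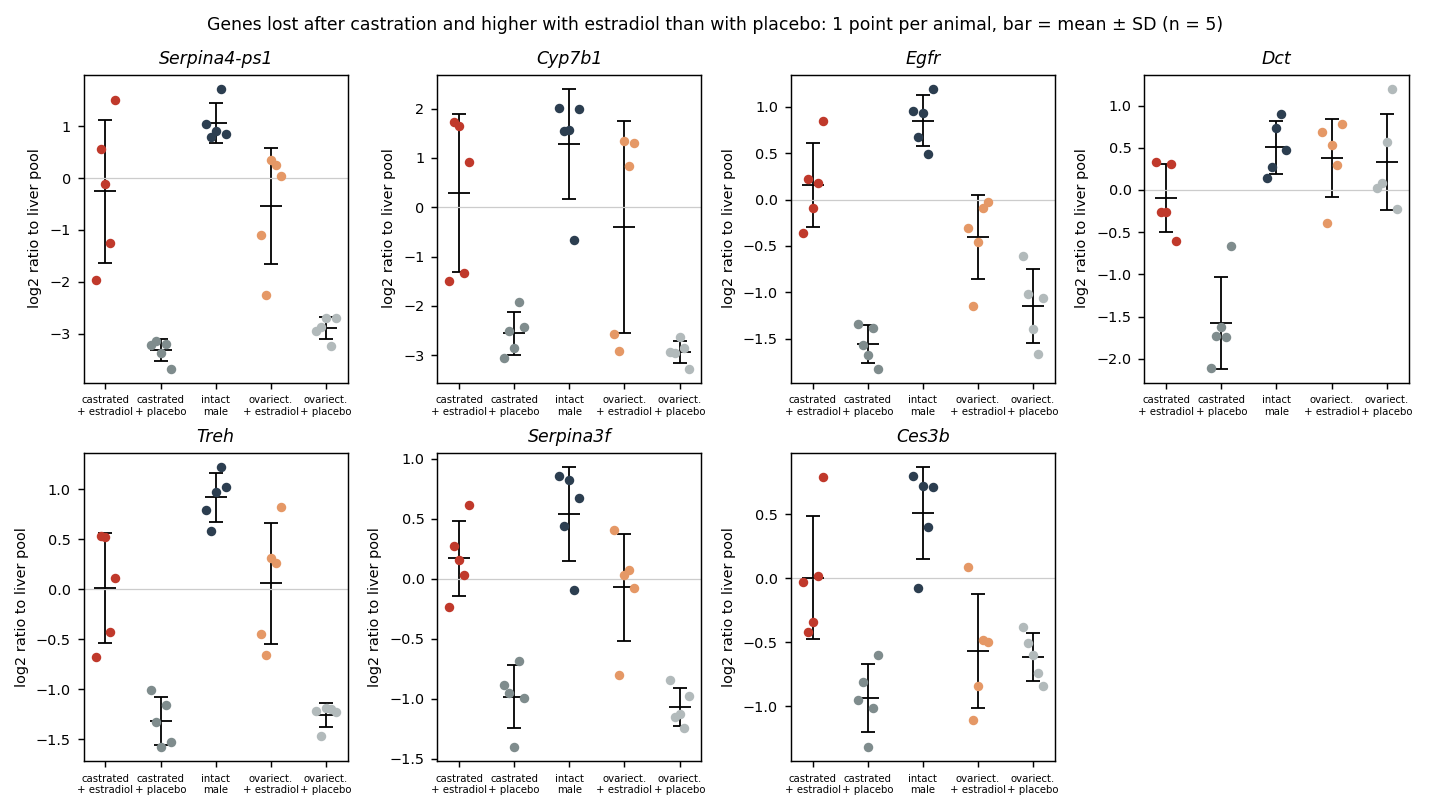
Log2 ratio to the liver pool of the 7 offset losses in 5 groups; each point is an animal, and the bar is the mean with its SD (n = 5). Estradiol livers lie above every castrated placebo liver in all 7 panels, and in ovariectomized females the groups overlap for Cyp7b1, Egfr, Dct and Ces3b.

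Promoter sequences of RefSeq (GRCm38.p6) were searched for the palindromic half-site pairs of the factors named above, in windows of 250 bases before to 50 after a gene's start. The estrogen response element GGTCANNNTGACC was in 0.07% of all 32851 windows, the androgen response element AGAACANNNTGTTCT in 0.00913% and the STAT5 motif TTCNNNGAA in 8.3%. Each motif is its own reverse complement, so both strands were read at once. Counted by gene over any of its windows, as the sets below are, the shares were 0.074%, 0.0111% and 9.55% of 27025 genes. Of the 7 offset losses 5 had a window, of which 0 held either hormone response element and 1, Serpina3f, held the STAT5 motif. The 10 lowest genes had 8 with a window and 1 with the STAT5 motif, Moxd1, and the 10 highest had 9 with a window and 3 with the motif: Slc22a26, Sult3a1 and A1bg. The 250 bases before the start are shown for 1 gene that estradiol offset, 1 that it did not and 1 that rose after castration, 5′ to 3′ along the gene, with the STAT5 motif in capitals. A match is a description of letters and not of binding. They are chr12:104214294-104214543 (plus strand), chr10:24223267-24223516 (plus strand) and chr19:7802668-7802917 (minus strand).
Serpina3f: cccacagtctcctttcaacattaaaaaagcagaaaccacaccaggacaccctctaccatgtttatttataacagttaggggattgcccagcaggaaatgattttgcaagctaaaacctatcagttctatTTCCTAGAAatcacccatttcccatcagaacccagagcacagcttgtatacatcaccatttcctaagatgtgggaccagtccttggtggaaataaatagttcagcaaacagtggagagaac
Moxd1: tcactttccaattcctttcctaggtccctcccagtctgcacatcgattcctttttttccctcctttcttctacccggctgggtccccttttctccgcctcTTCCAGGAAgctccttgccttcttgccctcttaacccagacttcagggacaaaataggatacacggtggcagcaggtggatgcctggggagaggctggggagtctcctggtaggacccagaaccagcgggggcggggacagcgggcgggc
Slc22a26: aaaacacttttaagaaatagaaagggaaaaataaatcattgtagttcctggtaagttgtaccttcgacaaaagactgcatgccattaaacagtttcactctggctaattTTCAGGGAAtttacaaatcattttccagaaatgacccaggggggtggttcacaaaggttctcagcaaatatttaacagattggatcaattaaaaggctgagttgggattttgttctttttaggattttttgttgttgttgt

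Egfr, the receptor of epidermal growth factor and an abundant hepatocyte surface protein, had the smallest adjusted p of the 7. It read -0.36, 0.22, -0.09, 0.18 and 0.84 in estradiol males, -1.34, -1.56, -1.67, -1.38 and -1.82 in castrated placebo males, and 0.95, 0.68, 0.93, 0.49 and 1.20 in intact males. Estradiol livers lay above all castrated placebo livers, and only animal 46 reached into the intact range. Egfr rose by 1.71 in estradiol against castrated placebo males (SE 0.29, limma adjusted p = 0.00269). In estradiol against intact males it stood at -0.69 (95% interval -1.29 to -0.10, adjusted p = 0.142), beside -2.40 (SE 0.29) in castrated placebo against intact males. The rise was called without any 1 animal and under all 7 other settings that were applied to every probe.

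Serpina3f, a serine protease inhibitor of the antichymotrypsin cluster whose upstream sequence is shown above, had the same stability. It read -0.23, 0.27, 0.16, 0.03 and 0.62 in estradiol males, -0.88, -0.95, -1.40, -0.68 and -0.996 in castrated placebo males, and 0.86, 0.44, 0.83, -0.09 and 0.68 in intact males. Estradiol livers overlapped intact livers and not castrated placebo livers. Serpina3f rose by 1.15 in estradiol against castrated placebo males (SE 0.24, limma adjusted p = 0.0105), and stood at -0.37 against intact males (95% interval -0.85 to 0.11).

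Cyp7b1, the oxysterol 7-alpha-hydroxylase of the alternative bile acid pathway, was far more variable. It read -1.50, 1.72, 1.65, -1.34 and 0.92 in estradiol males, -3.07, -2.51, -2.86, -1.92 and -2.44 in castrated placebo males, and 2.02, 1.55, 1.57, -0.66 and 1.99 in intact males. Animals 43 and 44 were at the intact level, and animals 41 and 45 lay below every intact male but above every castrated placebo male. Cyp7b1 averaged 0.29 ± 1.59 in estradiol males, -2.56 ± 0.44 in castrated placebo males and 1.29 ± 1.12 in intact males (SD, n = 5 each). The rise over castrated placebo males was 2.85 (SE 0.68, limma adjusted p = 0.0289), and the difference from intact males was -1.004 (95% interval -2.39 to 0.38). The call over castrated placebo males was lost without any 1 of 6 of the 10 animals (highest adjusted p = 0.0954).

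Serpina4-ps1, named as a pseudogene of a serpin gene, had the largest offset. It read -1.96, 0.56, -0.12, -1.26 and 1.49 in estradiol males, -3.21, -3.13, -3.37, -3.19 and -3.67 in castrated placebo males, and 1.05, 0.78, 0.90, 1.72 and 0.85 in intact males. Animals 41 and 45 were again the lowest of the estradiol group, above all castrated placebo livers. The rise over castrated placebo males was 3.06 (SE 0.69, limma adjusted p = 0.0187), and the difference from intact males was -1.32 (95% interval -2.72 to 0.08). The call was lost without animal 24, 43 or 46.

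Treh, the enzyme that splits trehalose, read -0.68, 0.53, 0.52, -0.42 and 0.11 in estradiol males, -1.01, -1.33, -1.58, -1.16 and -1.52 in castrated placebo males, and 0.80, 0.58, 0.97, 1.22 and 1.02 in intact males. No 2 of the 3 groups overlapped. Treh rose by 1.33 in estradiol against castrated placebo males (SE 0.31, limma adjusted p = 0.0213), and stood at -0.91 against intact males (95% interval -1.53 to -0.28, adjusted p = 0.0537). Its call was lost without animal 26, 43, 44 or 46.

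Dct, the dopachrome tautomerase known from melanin synthesis, read 0.34, -0.26, -0.26, 0.30 and -0.60 in estradiol males, -2.12, -1.73, -1.62, -1.74 and -0.67 in castrated placebo males, and 0.14, 0.27, 0.73, 0.90 and 0.47 in intact males. The castrated placebo animal 28 came close to the lowest estradiol animal. Dct rose by 1.48 in estradiol against castrated placebo males (SE 0.36, limma adjusted p = 0.0351), a call that was lost without any 1 of 9 of the 10 animals. Ces3b, a liver carboxylesterase, rose by 0.94 (SE 0.24, adjusted p = 0.0414), a call lost without any 1 of 7 animals. Both were also not called with the clock index as a covariate, and 5 of the 7 offset losses (all but Egfr and Serpina3f) were not called when only the 2 groups contrasted entered the fit. In estradiol against intact males none of the 7 was called, which does not show a return to the intact level, as the intervals for Egfr, Treh and Ces3b lay wholly below 0 (Ces3b -0.99 to -0.02).

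In ovariectomized females, which share no animal with the comparisons above, the 7 offset losses differed in how they responded. Over all probes 149 (0.632%) were called in ovariectomized estradiol against ovariectomized placebo females, and over all genes 0.47% were called higher. The SE of a probe is the same in males and females, so these shares are no chance level for the 7. Treh rose there by 1.32 (SE 0.31, limma adjusted p = 0.0305) and Serpina3f by 1.00 (SE 0.24, adjusted p = 0.0341). Cyp7b1, at 2.54 (SE 0.68, adjusted p = 0.0695), and Serpina4-ps1, at 2.35 (SE 0.69, adjusted p = 0.0989), were not called, beside 2.85 and 3.06 in castrated males. Egfr stood at 0.74 (SE 0.29, adjusted p = 0.295), Dct at 0.05 (SE 0.36) and Ces3b at 0.05 (SE 0.24).

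The single livers show where the spread lay. Cyp7b1 read -2.57, -2.92, 1.35, 0.84 and 1.31 in ovariectomized estradiol females, against -2.95, -2.96, -2.64, -2.86 and -3.27 in ovariectomized placebo females. Animals 33 and 34 sat near or within the placebo range and animals 35 to 37 far above it. Serpina4-ps1 read -1.09, -2.25, 0.35, 0.25 and 0.03 in ovariectomized estradiol females, against -2.94, -2.86, -2.70, -3.23 and -2.70 in ovariectomized placebo females, with the same 2 animals lowest and no overlap.

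Some markers of other cell types split the estradiol animals in a partly similar way. The mean of 12 Kupffer cell and macrophage markers was -0.47, 0.75, 0.12, -0.19 and -0.18 in estradiol males 41, 43, 44, 45 and 46, between -0.51 and -0.05 in castrated placebo males, and between -0.65 and -0.17 in intact males. It was -0.17, -0.28, 1.04, 1.66 and 0.46 in ovariectomized estradiol females 33 to 37, and between -0.42 and 0.06 in ovariectomized placebo females. Animals 43 and 44 and animals 35 to 37 were thus the high ones of their groups for these markers, and the highest for Cyp7b1. Estradiol male 46 did not follow: at -0.18 for these markers, it read 0.92 for Cyp7b1. It was also the highest estradiol male for Serpina4-ps1, at 1.49. Endothelial markers split otherwise, with a mean of 0.07 in estradiol male 41 and -0.06 in 43. Ngp, a neutrophil granule gene, read -0.21, 1.83, 1.09, -0.23 and -0.31 in the estradiol males and -0.37, -0.62, 1.26, 1.96 and 1.48 in the ovariectomized estradiol females. The mean of 9 neutrophil markers was -0.29, 0.85, 0.39, -0.16 and -0.23 in these males. Elane, of the same list, did not follow, at -0.17, -0.08 and -0.06 in females 35 to 37. Fabp4, a fatty acid binding protein of adipocytes and macrophages, read -0.99, 1.72, 0.60, -0.87 and -0.31 in the estradiol males and -0.76, -0.95, 2.49, 2.36 and 1.94 in the ovariectomized estradiol females. Lep and Prss2, measured in the same list as Fabp4, did not follow it. In females 35 to 37 Lep read -0.26, -0.18 and -0.08, and Prss2 read -0.08, 0.05 and 0.05. The part of such cells in the values of Cyp7b1, Serpina4-ps1, Treh, Mmd2, Corin, Spon1 and Dntt was not tested.

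The test of the difference of the estradiol effect between the sexes called 0 of 23574 probes in limma, with 973 at an unadjusted p under 0.05 and 3 called when arrays were weighted. For Dct the effect in castrated males exceeded that in ovariectomized females by 1.43 (adjusted p = 0.993), and no sex difference in the response was called for any gene.

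The whole set of 70 losses moved little in ovariectomized females. There 2 of the 70 rose with estradiol (Treh and Serpina3f) and 1 fell (Spsb4, a SOCS-box gene, at -0.79). The median over the 70 was -0.04, beside -0.01 over all genes, of which 51 were called higher and 45 lower.

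Of 43 genes that castration with placebo raised by at least 2-fold, estradiol offset 2 by the mirrored rule. All genes were called higher in castrated placebo against intact males at 5.16% and lower in estradiol against castrated placebo males at 0.535%. Pde6c, a cone phosphodiesterase subunit, read -0.06, -1.12, -0.81, -0.85 and -0.82 in estradiol males, 1.37, 1.10, 0.57, 1.24 and 0.61 in castrated placebo males, and -1.75, -2.09, -0.90, -0.75 and -1.15 in intact males. The estradiol livers lay below all castrated placebo livers and overlapped the intact ones. Pde6c fell by 1.71 in estradiol against castrated placebo males (SE 0.31, limma adjusted p = 0.00388), and another probe of it gave -0.08 and was not called.

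Serpina7, the thyroxine-binding globulin, read 0.22, -0.28, -0.60, -0.75 and 0.22 in estradiol males, 0.21, 0.32, 0.40, 1.25 and 1.41 in castrated placebo males, and -0.71, -0.77, -0.87, -0.29 and -0.42 in intact males. Here the estradiol group overlapped both others. Serpina7 fell by 0.96 in estradiol against castrated placebo males (SE 0.25, limma adjusted p = 0.045), a call lost without any 1 of 8 animals. It also fell by 1.13 in ovariectomized estradiol against ovariectomized placebo females (SE 0.25, adjusted p = 0.0225). Serpina6, the corticosteroid-binding globulin, rose by 1.74 in estradiol against intact males (SE 0.29), beside 2.27 in castrated placebo against intact males. In estradiol against castrated placebo males it stood at -0.53 (adjusted p = 0.428). In ovariectomized estradiol against ovariectomized placebo females Serpina6 fell by 1.48 (limma adjusted p = 0.0115).

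A further pattern was a change with estradiol in genes that castration with placebo had not moved past the test. By rule these 43 genes were called in estradiol against castrated placebo and against intact males, in the same direction, and not in castrated placebo against intact males: 26 were higher and 17 lower. The values of males below describe the choice. In the ovariectomized females, which are other animals, 6 of the 26 rose and 0 fell, and 6 of the 17 fell and 0 rose. Over all genes 0.47% were called higher there and 0.415% lower. Those shares are no chance level for the 43, since each probe has the same SE in males and females. A gene called in males at a small SE is favoured in females too, so these counts test nothing. By direction alone, 22 of the 26 differences in ovariectomized females lay above 0 and 16 of the 17 below it. Over all genes 4978 of 10842 lay above 0. The count of 149 probes called in these females was unstable: 23, 22 and 23 without animals 35, 36 and 37. It was 55 when only the groups contrasted entered the fit. Whether the single calls in these females hold under these settings was not tested. The calls in males were unstable as well. Fitting only the 2 groups contrasted ended the estradiol against castrated placebo call of 24 of the 163 named genes.

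Corin, the protease that activates natriuretic peptides, read -1.45, 1.69, 2.43, -0.60 and 0.67 in estradiol males, -1.46, -1.38, -1.33, -1.44 and -1.09 in castrated placebo males, and -2.10, -2.11, -2.10, -1.84 and -2.16 in intact males. Animal 41 lay within the castrated placebo range and the other 4 estradiol livers above it. The difference was 1.89 against castrated placebo males (SE 0.47) and 2.61 against intact males (SE 0.47). Castrated placebo males stood 0.72 above intact males without overlap, yet were not called (SE 0.47, limma adjusted p = 0.333). The SD was 0.15 in castrated placebo and 0.13 in intact males, beside 1.595 in estradiol males, and the SE is shared by all groups. In ovariectomized females Corin read -0.12, -0.51, 2.44, 1.61 and 1.80 with estradiol and -1.05, -1.41, -0.38, -0.58 and -1.52 with placebo. It rose there by 2.03 (SE 0.47, limma adjusted p = 0.0292), and animals 33 and 34 were the lowest of the estradiol females, with animal 34 inside the placebo range.

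Spon1, an extracellular matrix spondin, read -1.28, 2.18, 2.63, -0.63 and 0.63 in estradiol males, -0.91, -1.15, -1.19, -1.25 and -1.30 in castrated placebo males, and -0.72, -0.80, -1.28, -1.33 and -0.85 in intact males. Animals 41 and 45 were the lowest of the estradiol males, and the macrophage markers given above were highest in animals 43 and 44, as Spon1 was. In ovariectomized females Spon1 rose with estradiol by 2.04 (SE 0.49, limma adjusted p = 0.039), beside 1.86 in castrated males. Dntt, the terminal deoxynucleotidyl transferase of lymphoid cells, rose by 1.87 in ovariectomized females (SE 0.37, adjusted p = 0.0116), beside 1.60 in castrated males. Ptgds, a prostaglandin D synthase, rose by 1.26 (SE 0.26) beside 1.15, Fkbp5, a co-chaperone of the glucocorticoid receptor, by 1.01 (SE 0.23) beside 0.88, and Focad, a focal adhesion gene, by 0.35 beside 0.33.

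Mmd2 and Lamb3 were also called in ovariectomized females but did not meet the rule of that list. Mmd2 rose by 1.46 in castrated placebo against intact males (SE 0.45, limma adjusted p = 0.029). Lamb3 was not called in estradiol against castrated placebo males, at -1.23 (SE 0.37, adjusted p = 0.0977). Mmd2, a membrane protein of the progestin and adipoQ receptor family, read -0.71, 1.64, 2.21, -0.40 and 0.24 in estradiol males, -1.40, -1.08, -1.09, -1.65 and -1.09 in castrated placebo males, and -2.38, -3.03, -2.98, -2.60 and -2.64 in intact males. The 3 groups did not overlap. Mmd2 rose by 3.32 in estradiol against intact males (SE 0.45) and by 1.86 in estradiol against castrated placebo males (SE 0.45, limma adjusted p = 0.0334). It rose by 2.00 in ovariectomized estradiol against ovariectomized placebo females (SE 0.45, adjusted p = 0.0275). Lamb3 fell there by 1.72 (SE 0.37, adjusted p = 0.0206).

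Among the genes that were lower, Gpd2, the mitochondrial glycerol-3-phosphate dehydrogenase, had the largest fall in ovariectomized females. In males it read -0.15, -0.76, -0.79, -1.03 and -0.51 in estradiol males, 0.17, 0.14, 0.18, 0.11 and 0.96 in castrated placebo males, and 0.09, 0.01, 0.02, 0.17 and -0.12 in intact males. Every estradiol liver lay below every castrated placebo and intact liver. In ovariectomized females Gpd2 read -0.19, -0.36, -0.70, -0.76 and -0.92 with estradiol and 0.46, 0.23, 0.77, 0.35 and 0.66 with placebo, a fall by 1.08 (SE 0.16, limma adjusted p = 0.000563) with no overlap. Denn2b, Hipk2, Phlpp1, Tectb and Fgf10 also fell in ovariectomized females, by between 0.28 and 0.66.

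Others of the 43 were not called in ovariectomized females. Ngef, a guanine nucleotide exchange factor, stood at 1.14 in estradiol against castrated placebo males and at 0.36 in ovariectomized females (limma adjusted p = 0.518). Tk1, a thymidine kinase, stood at 0.98 and 0.21 (adjusted p = 0.759), and its second probe at 0.84 in castrated males. Slc26a4, an anion exchanger, stood at 0.80 in castrated males and -0.39 in ovariectomized females (adjusted p = 0.539). The difference between the sexes was not called for any of these 3 (adjusted p between 0.778 and 0.961). Upp2, a uridine phosphorylase, stood at 1.19 and 0.22, and its call in estradiol against intact males was lost with the clock index as a covariate. Its other probe gave 0.00.

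**Figure D3:**
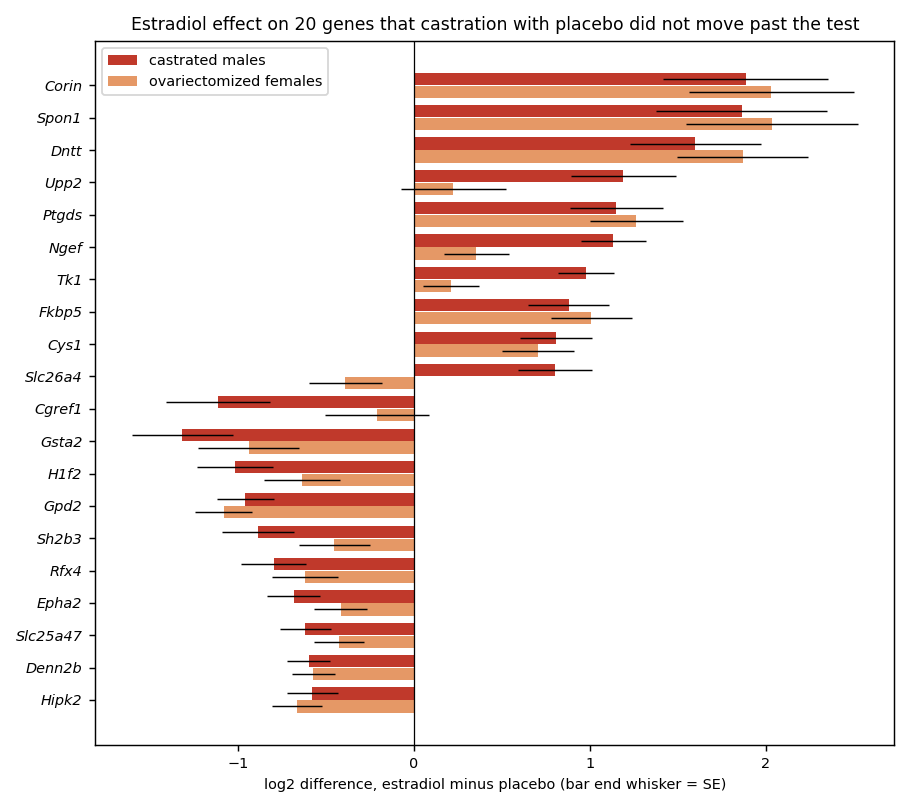
Log2 difference of estradiol against placebo in castrated males (upper bar of each pair) and in ovariectomized females (lower bar), for 20 of the 43 genes that placebo castration did not move past the test; whiskers are the SE, n = 5 a group. Corin is at 1.89 and 2.03, Gpd2 at -0.96 and -1.08, and Slc26a4 at 0.80 and -0.39.

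Most male-biased genes were lower in estradiol than in intact males. The list was chosen with earlier results of these data known, so its counts describe it and are no independent evidence. Of 27 measured male-biased liver genes 15 fell and 1 rose in estradiol against intact males, where 6.01% of all genes fell and 4.62% rose. The 1 that rose was Trim24, a transcriptional coregulator. Whether Trim24 or the other members of the list are male-biased in these mice was not tested here. In castrated placebo against intact males 21 of the 27 fell and 0 rose. The median difference was -1.004 in estradiol and -2.03 in castrated placebo males, each against intact males, beside 0.00 and 0.02 over all genes. In estradiol against castrated placebo males 3 of the 27 rose (Egfr, Serpina4-ps1 and Cyp7b1). The mean of the 27 per animal ran between -0.70 and 0.07 in estradiol males, between -1.17 and -0.99 in castrated placebo males, and between 0.40 and 1.02 in intact males, with no overlap. In ovariectomized estradiol against ovariectomized placebo females 0 of the 27 rose and 0 fell. Over all genes 0.47% rose and 0.415% fell in that comparison, so a count of 0 says little. Cyp7b1 and Serpina4-ps1 stood at 2.54 and 2.35 there without a call, and the median over the 27 was -0.01.

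Among the members that stayed called were C9, the last complement component of the membrane attack complex, and Slco1a1, an organic anion uptake transporter. C9 fell by 1.22 in estradiol against intact males (SE 0.32), beside -2.30 in castrated placebo against intact males. Slco1a1 fell by 1.21 (SE 0.27), beside -1.89. Ugt2b5, a glucuronosyltransferase, was not called under estradiol at -0.70 (SE 0.27, limma adjusted p = 0.0971), and fell by 1.70 in castrated placebo against intact males.

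**Figure D4:**
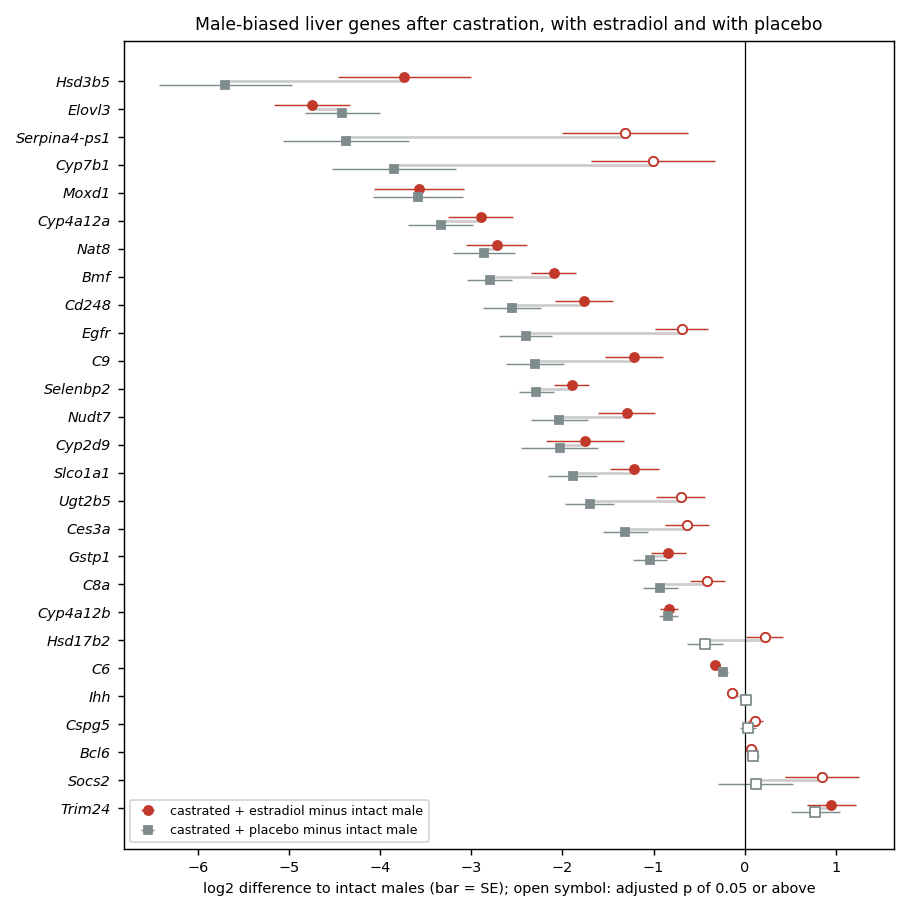
The 27 genes of the male-biased list: log2 difference to intact males of castrated estradiol males (circles) and castrated placebo males (squares), with SE; open symbols have an adjusted p of 0.05 or above. Serpina4-ps1, Cyp7b1, Hsd3b5 and Egfr have the widest gaps between the symbols (3.06, 2.85, 1.96 and 1.71), and Moxd1 has a gap of 0.02.

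Most female-biased genes were higher in both castrated groups than in intact males. That list, too, was chosen with earlier results of these data known. Of 33 measured, 18 rose and 2 fell in estradiol against intact males, with a median of 0.74, and 18 rose and 2 fell in castrated placebo against intact males, with a median of 0.89. In estradiol against castrated placebo males 1 of the 33 rose, Ptgds. The mean of the 33 ran between -0.20 and 0.00 in estradiol males, between -0.35 and 0.08 in castrated placebo males, and between -1.65 and -1.45 in intact males. Cux2, a female-biased repressor in mouse liver, rose by 1.46 in estradiol against intact males (SE 0.31) and Cd36, a fatty acid translocase, by 1.18 (SE 0.28).

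The receptors and main transducers of estradiol and growth hormone were not called at the RNA level. Esr1, the estrogen receptor alpha gene, stood at -0.11 in estradiol against intact males (limma adjusted p = 0.66). Ghr, the growth hormone receptor, stood at 0.09 (adjusted p = 0.88), Stat5b at 0.00 and Bcl6, a repressor of STAT5 targets, at 0.07. Of 24 measured genes of growth hormone and STAT5 signalling 3 rose (Cux2, Igfbp3 and Foxa2) and 2 fell (Cebpb and Foxa1). Over all genes 4.62% rose and 6.01% fell in that comparison. Between estradiol and castrated placebo males 0 of the 24 were called, where 1.44% of all genes were, so this 0 says little. In estradiol against intact males the forkhead genes went opposite ways. Foxa1 fell by 0.44 and Foxa2 rose by 0.46, a pair of related liver transcription factors. The androgen receptor gene and 12 genes of major urinary proteins had no named probe, so they were not analysed here.

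Genes of fatty acid oxidation and fasting that were called were all lower in estradiol than in intact males. Of 31 measured, 9 fell and 0 rose in estradiol against intact males, with a median of -0.18. Over all genes 6.01% fell and 4.62% rose there. In castrated placebo against intact males 1 fell and 3 rose, with a median of -0.01. In estradiol against castrated placebo males 0 of the 31 were called, where 1.44% of all genes were. Cpt2, the inner carnitine palmitoyltransferase, fell by 0.62 in estradiol against intact males (SE 0.11, limma adjusted p = 0.000198), and Pdk4, which holds back pyruvate oxidation in fasting, fell by 1.16 (SE 0.25, adjusted p = 0.00213). In ovariectomized estradiol against ovariectomized placebo females 4 of the 31 fell (Cpt2, Crat, Pex11a and Ppara) and 0 rose, with a median of -0.30. Cpt2 fell by 0.56 in those females, where 0.415% of all genes fell.

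Genes of glucose output and insulin response gave 5 lower and 2 higher of 24 measured in estradiol against intact males. Over all genes 6.01% were lower and 4.62% higher in that comparison. Igfbp1, an insulin- and fasting-regulated binding protein, fell by 2.37 (SE 0.49, limma adjusted p = 0.00106) and Irs2, an insulin receptor substrate, by 1.75 (SE 0.30), while a second probe of Irs2 fell by 0.86. Intact male 11, at -1.30 for Igfbp1 and -0.71 for Irs2, lay inside the estradiol range, which ran between -2.32 and -0.64 for Igfbp1 and between -1.70 and -0.38 for Irs2. The other 4 intact males lay between 0.97 and 1.93 for Igfbp1 and between 0.79 and 1.31 for Irs2. Among circadian clock genes 4 of 19 rose and 2 fell: Usp2 rose by 1.11 (SE 0.14) and Per2 by 1.31 (SE 0.30), and Arntl fell by 1.38 (SE 0.26). The same members carry the clock index above, and Per2 stood at -0.024 with that index as a covariate.

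Bile acid genes split evenly, with 5 higher and 5 lower of 28 measured in estradiol against intact males. Over all genes 4.62% were higher and 6.01% lower in that comparison. Akr1d1, the bile acid and steroid 5-beta-reductase, rose by 1.19 (SE 0.31), and Hsd3b7, of the same pathway, fell by 0.45 (SE 0.11). Conjugation and transport genes had 10 higher and 10 lower of 38. Sult1c2, a sulfotransferase, rose by 1.17 (SE 0.19), Abcb1a, the multidrug export pump, by 1.98 (SE 0.28), and Abcg2, another export pump, fell by 1.24 (SE 0.23). Sult5a1, a further sulfotransferase, rose by 1.21 in estradiol against castrated placebo males (limma adjusted p = 0.00238).

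A list of 35 known estrogen-responsive genes had 8 higher and 5 lower in estradiol against intact males, beside 4.62% and 6.01% of all genes. Part of that list had been chosen with results of these data known, so its count is no independent evidence. Its members outside the genes above include Ccnd1, a cyclin, which rose by 0.68 (SE 0.20), and Krt23, a keratin, which fell by 0.81 (SE 0.25). Ccnd1 rose by 1.21 in castrated placebo against intact males (limma adjusted p = 6.33e-05). In estradiol against castrated placebo males Ccnd1 stood at -0.53 and was not called (adjusted p = 0.23).

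**Figure D5:**
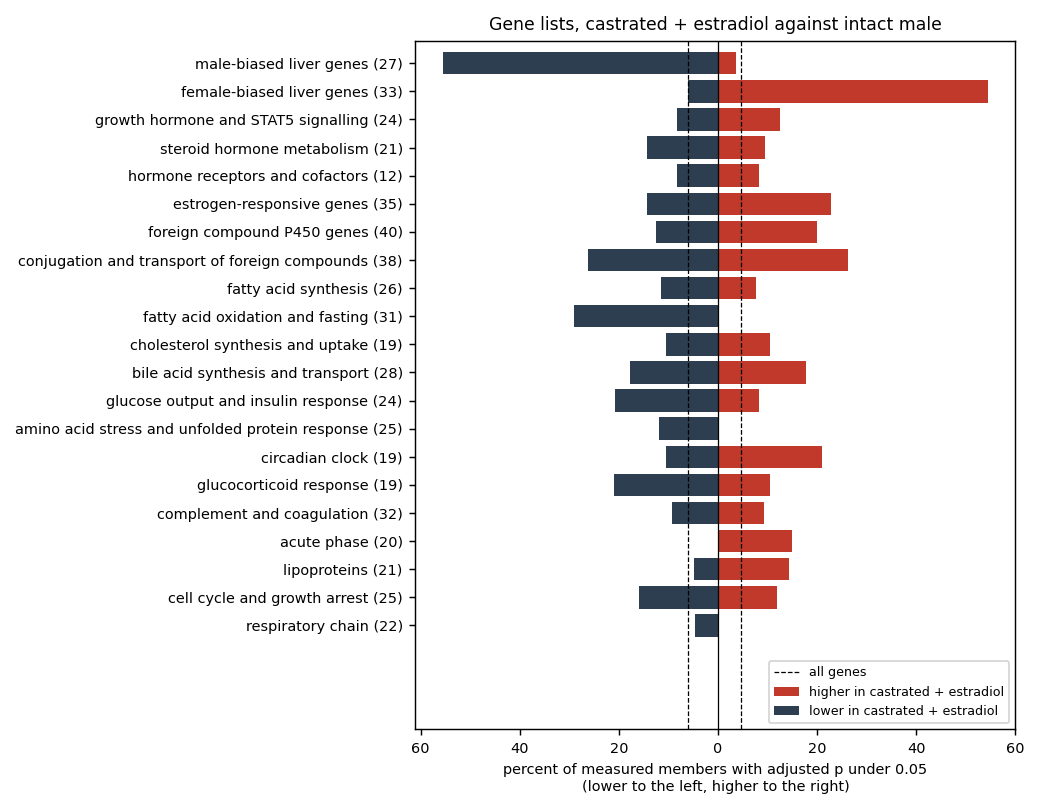
Share of the measured members of 21 gene lists (number in brackets) that were lower (left) or higher (right) in castrated estradiol than in intact males at an adjusted p under 0.05; dashed lines mark the shares over all genes, 6.01% and 4.62%. Male-biased and female-biased genes have the longest bars, and fatty acid oxidation and fasting has 9 lower members and 0 higher. The lists were chosen with earlier results of these data known.

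Over all genes 10.6% were called in estradiol against intact males, so a list of about 10 markers gives little room to read a count of 0. Of 12 Kupffer cell and macrophage markers 0 were called, with a median difference of 0.44, and 0 were called of 11 T and B cell, 10 endothelial and 5 cholangiocyte markers. Of 7 markers of MHC class II and dendritic cells H2-DMa fell by 0.22 (SE 0.05), and of 3 markers of adipocytes and pancreas Lep fell by 0.32 (SE 0.08). Of 11 stellate cell and fibroblast markers 2 fell (Timp1 by 0.78, SE 0.11, and Cd248), and of 7 erythroid markers 1 fell (Alas2 by 1.28, SE 0.24). Of 9 neutrophil markers Ngp rose by 1.10 and Elane fell by 0.20. In ovariectomized estradiol against ovariectomized placebo females Fabp4 rose by 2.04 (limma adjusted p = 0.0229), Cxcl13, a B cell chemokine, rose by 2.09 (adjusted p = 0.0151) and Car1, an erythroid carbonic anhydrase, fell by 1.33 (adjusted p = 0.0013).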

How the data were processed

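Liver RNA of 40 mice was measured on 2-colour arrays. Per the labels, liver RNA was in the Cy5 channel and a liver pool in Cy3 on every array, with no dye swap. The authors deposited log10 ratios of 23574 probes, which stop at 2 and -2 (29 values on 16 probes), with 0 missing values and 0 unused columns. The base and direction were settled from the values. Read as log10, the mean linear ratio of the 200 most variable probes had a median of 1.00, against 0.961 read as log2, and Y-linked genes were higher in males. The background correction, normalization and centring are not given in the sources used here. Only this value table was analysed, and precision is limited by how many arrays each group has. Array medians ran between -0.0135 and 0.0109 in log10 units.

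After conversion to log2, the values were fitted with limma 3.58.1 in R 4.3.3 (lmFit and eBayes, 8 group means over 40 arrays, 32 residual degrees of freedom). The median residual SD was 0.146. The fit of estradiol against intact males was tested on simulated data of 23574 probes, where 97 of 100 probes changed by a log2 of 1 and 100 of 100 changed by 2 were recovered, with 8 false calls. The simulated noise was normal, independent and of equal SD in all groups, and the flattest probes were not changed. Groups of unequal spread were therefore not tested, such as Corin with an SD of 1.595 in estradiol and 0.15 in castrated placebo males. The labels give no batch, slide or date, so none was tested. Probe names come from the platform annotation: 12662 probes of 10842 genes were named, 48 had several symbols and 9861 were not named. Where a gene had over 1 probe (1157 genes), the most variable one, by SD across arrays, was taken.

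Named genes are the 15 highest and 15 lowest of the 601 genes called without overlap of estradiol and intact males, the offset losses and gains, up to 10 genes in each direction of the genes that only estradiol moved past the test, the first 4 members of each list by adjusted p, and receptors and sex chromosome genes. Clone names were left out. Other list members, and genes at a threshold or called in ovariectomized females, were named after their values were seen. Members and lists were chosen with earlier results of these data known, so counts over any list are no independent evidence. Alternatives were array weights, the clock index, median centring, quantile normalization, a filter on flat probes, leaving out limit values, fitting only the groups contrasted, the mean over all probes of a gene, and leaving out each animal.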

Additional observations from a re-analysis of the deposited data

Results flagged for a closer look

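In groups of 5, a single liver was taken as apart when its gap to the nearest other liver exceeded 0.71 of the group's range. Of 189 groups over 63 genes 11 met this, where chance gives about 1 in 20. Values are log2 ratios to the pool.

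Intact male 11 accounted for 5 of the 11: Corin at -1.84, Selenbp2 at 0.54, Serpina4-ps1 at 1.72, Cyp7b1 at -0.66 and Eif2s3y at 0.41. It was lower than the other intact males for Selenbp2, Cyp7b1 and Eif2s3y, and higher for Corin and Serpina4-ps1. Without it, 2861 probes were called between estradiol and intact males, beside 2333 with it.

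Estradiol animal 41 accounted for 3, with Sult3a1 at -0.01 and Ptgds at -0.54, both below the other estradiol males, and Pde6c at -0.06, above them. Estradiol animal 46 stood above its group for Hsd3b5, at 0.60. Castrated placebo animal 28 stood above its group for Gpd2, at 0.96, and below it for Stat5b, at -0.09.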

How the results depend on the processing

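Between estradiol and intact males, 983 probes were called with the clock index as a covariate, 925 when only the groups contrasted entered the fit and 1139 after quantile normalization, beside 2333. Between castrated placebo and intact males the counts were 7762 with array weights, 1763 with only the groups contrasted, 1802 after quantile normalization and 1876 among probes above the median SD, beside 2856. Between estradiol and castrated placebo males they were 753 with array weights and 37 with only the groups contrasted, beside 278. In ovariectomized females they were 1092 and 55 under the same settings, beside 149. The test of the sex difference called 3 with array weights, beside 0. The cause of these shifts was not tested. A fit of only the groups contrasted has fewer arrays and also takes its spread from those groups alone.

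Leaving out 1 animal gave 1706 to 2861 probes for estradiol against intact males, 1976 to 3687 for castrated placebo against intact males and 69 to 322 for estradiol against castrated placebo males. That last count was 69 without animal 24, 84 without 46, 144 without 25, 165 without 26 and 179 without 45. It gave 22 to 902 in ovariectomized females and 0 to 2 for the sex difference. The ovariectomized count was 418 without animal 33 and 902 without 34, 23 without 35, 22 without 36 and 23 without 37. Without a placebo female it was 97 (animal 16), 51 (17), 43 (18), 47 (19) and 87 (20). Of the 163 named genes 1 changed direction: Per2 stood at -0.024 in estradiol against intact males with the clock index. In that comparison the index ended the call of 54 and brought 8 past the threshold, fitting only the groups contrasted ended 31 and quantile normalization 24. The mean over all probes of a gene moved 8 of 17 values there. Between estradiol and castrated placebo males, fitting only the groups contrasted ended the call of 24 named genes. No paired analysis was possible because no animal number occurs in more than 1 group. Signal over background was unknown, so low probes could not be told from measured ones.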
